A study of Mus musculus with 12 samples.

Results

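Complex I of the mouse left ventricle is described here through the genes of its structural subunits and of its assembly factors. Members were all genes that had a probe set annotated to a single symbol beginning with Ndufa, Ndufb, Ndufc, Ndufs, Ndufv or Ndufaf, each read by the probe set with its highest mean over the arrays. The rule found 44 of the 18193 genes with a probe set of 1 symbol, and 43 of them were among the 10435 genes tested. These 43 comprise 33 structural subunits, the 8 assembly factors Ndufaf1 to Ndufaf8, and Ndufa4 and Ndufa4l2, which share the name but are not placed in complex I. Ndufb4 was the member left out, because its probe set lay at the floor of the data (log2 2.23) on all arrays. The subunits Ndufs6 and Ndufa11 had no probe set of a single symbol and were not analysed here.

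The study put pressure on the left ventricle of male C57BL/6 mice by a band around the aorta and then removed the band. Each of the 4 groups held 3 mice, with 1 Affymetrix expression array per mouse, and the first operation was done at 7 weeks of age. In the group AB the aorta stayed banded for 4 weeks, and sAB is its sham at the same time. In DB3 the band was taken off after 4 weeks and the ventricle was collected 3 days later, and sDB3 received a sham first operation and the second operation, also with 3 days to collection. No mutation, transgene or drug is named for any group, and all hearts were snap-frozen without the atria and the right ventricle. Values are log2 signals, so a difference of 1 is a doubling.

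Complex I, NADH:ubiquinone oxidoreductase, takes electrons from NADH in the mitochondrial matrix, passes them along iron-sulfur clusters to ubiquinone and pumps protons across the inner membrane. Its core subunits carry the flavin, the clusters and the quinone site, and a shell of accessory subunits surrounds them along a matrix arm and a membrane arm. Assembly factors help to join the modules and are not part of the finished enzyme. The contracting cardiomyocyte is packed with mitochondria and lives mostly on oxidative phosphorylation. Subunits made from mitochondrial DNA are outside the naming rule and do not enter the counts.

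Start-site sequences are printed for Ndufv1, Ndufa8 and Ndufaf4, with the motifs that were searched. Each was called in a comparison below, but Ndufa8 and Ndufaf4 were called in fewer comparisons than Ndufb2 and Ndufb8. The RefSeq table (assembly GRCm38.p6) held 41 windows for 39 of the 44 members, each from 250 bases before to 50 bases after a start. Capitals mark a match to the NRF1 letters CGCANGCG on either strand. The 120 bases before the start of Ndufv1, the subunit that binds the flavin, held no match to any motif searched (chr19:4012756-4012875, minus strand). The stretch of Ndufa8, an accessory subunit of the membrane arm, held 2 matches (chr2:36049339-36049458, minus strand). That of Ndufaf4, an assembly factor, held 1 (chr4:24897963-24898082, plus strand).
Ndufv1: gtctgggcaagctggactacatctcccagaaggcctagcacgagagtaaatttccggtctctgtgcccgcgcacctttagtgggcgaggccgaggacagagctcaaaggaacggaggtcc
Ndufa8: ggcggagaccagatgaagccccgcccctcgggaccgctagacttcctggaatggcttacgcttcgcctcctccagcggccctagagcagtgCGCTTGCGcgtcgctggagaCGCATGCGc
Ndufaf4: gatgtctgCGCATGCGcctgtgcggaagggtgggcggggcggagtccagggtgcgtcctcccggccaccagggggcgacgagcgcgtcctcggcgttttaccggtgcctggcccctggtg

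NRF1 is a transcription factor known for sites in front of nuclear genes of the respiratory chain. The letters CGCATGCG, the inner part of its usual site, were found for 3 members, Ndufa8, Ndufaf4 and Ndufaf5. Ndufa8 and Ndufaf4 are printed above, so the printed stretches do not stand for the members as a whole. That is 7.69% of the members matched, against 4.5% of the genes tested and 2.07% of all genes in the table. The looser CGCANGCG, which includes it, was found for 11 members (28.2%, against 20.4% and 9.22%). A longer form of each, with G before and C after, had been searched first. The longer form of the first was found for Ndufaf4 and Ndufaf5 (5.13%, against 2.45% and 1.07%), and that of the looser letters for 7 members (17.9%, against 12.2% and 5.19%). The ETS letters CCGGAAG were found for 6 members (15.4%, against 20.5% and 9.93%). The letters TCAAGGTCA of the estrogen-related receptors were found for no member and for 0.33% of the genes tested. All motifs were read on both strands.

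The most frequent match beside its background was to the YY1 letters AAGATGGC, found for 7 members (17.9%), against 5.64% of the genes tested and 3.19% of all genes. It lies shortly after the start in the core and accessory subunits printed here. Capitals mark the match in Ndufs7, the core subunit next to the quinone site (chr10:80249462-80249491, plus strand), Ndufs4, which fastens the NADH module (chr13:114388045-114388074, minus strand), and Ndufb8 of the outer membrane arm (chr19:44555393-44555422, minus strand). A match is a string of letters and no measured binding site, and AAGATGGC contains ATG, the letters of a start codon.
Ndufs7: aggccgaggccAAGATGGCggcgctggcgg
Ndufs4: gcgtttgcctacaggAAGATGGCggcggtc
Ndufb8: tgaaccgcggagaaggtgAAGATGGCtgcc

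The arrays showed bright ventricular markers, and the sAB arrays differed from the others in spiked controls. All 5 ventricular cardiomyocyte markers were bright on every array, and their summed level lay between log2 18.09 and 18.26. The 3 sAB arrays read the spiked control BioC at 10.15 to 10.51, and the other 9 arrays read it at 8.276 to 8.603. Cre, another spiked control, read lower in sAB, at 14.11 to 14.28 against 14.39 to 14.68. BioB overlapped, at 8.48 to 8.999 against 8.361 to 8.787. The labels name no batch, and in every comparison with sAB this difference and the group cannot be told apart. The 4 atrial markers differed among themselves. Nppa, the natriuretic peptide A gene, rose by 2.39 in AB against sAB, by 2.07 in AB against sDB3 and by 0.91 in DB3 against sDB3 (limma adjusted p = 1.38e-05, 0.00017 and 0.0171). Myl7, Sln and Myl4 read higher in AB than in sAB and lower in AB and in DB3 than in sDB3, and none of these differences passed. Myl7, the atrial myosin light chain, read 9.46, 12.72 and 4.67 on the DB3 arrays, so these genes varied widely within a group. On the sDB3 arrays Myl7 read 12.41, 12.97 and 10.11. All AB arrays lay above all sAB arrays for 4 of 4 atrial markers, against 23.1% of all genes tested. The same held for sDB3 above sAB, against 11.1%. The part of atrial tissue in these values was not tested. The 3′ minus 5′ signal of Actb, a sign of RNA integrity, was 1.025 to 1.133 in AB, 1.199 to 1.258 in sAB, 1.201 to 1.253 in sDB3 and 1.11 to 1.321 in DB3. Markers of other cells also differed. The summed level of the 6 fibroblast markers was 13.78 to 14.29 in sAB, 14.27 to 14.83 in AB, 13.8 to 13.87 in sDB3 and 14.03 to 14.37 in DB3. Postn, Col1a1 and Pdgfra of these rose in AB against sAB, Postn rose in AB against sDB3, where all 6 had every AB array above every sDB3 array, and Dcn rose in DB3 against sDB3. The summed level of the 5 endothelial markers was 11.87 to 11.93 in sAB, 12 to 12.1 in AB, 11.61 to 11.92 in sDB3 and 11.67 to 11.99 in DB3, and Tie1, Cdh5 and Tek rose in AB against sDB3 and Tie1 also against sAB. The part of these differences in the results on complex I was not tested. As the RNA is from whole ventricle, fewer cardiomyocytes and less RNA per cardiomyocyte cannot be told apart.

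Across the 4 groups the structural subunits were low in AB and DB3. The 8 Ndufaf assembly factors were mostly highest in sAB and lowest in DB3. The group mean was lowest in AB for 14 and in DB3 for 15 of the 33 subunits, and highest in sAB for 17 and in sDB3 for 15. Among all genes tested the lowest mean was in AB for 18.3% and in DB3 for 16.3%, and the highest in sAB for 32.5% and in sDB3 for 10.4%. The matrix arm accessory subunits were lowest in AB for 6 of 8, whereas the distal membrane arm was lowest in DB3 for 8 of 11. Assembly factors were lowest in DB3 for 6 of 8 and highest in sAB for 6 of 8.

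As an array summary, the median over the subunits of the log2 signal minus each gene's 12-array mean was 0.04, 0.05 and 0.04 on the sAB arrays and -0.02, -0.07 and -0.05 on the AB arrays. It was 0.06, 0.03 and 0.01 on the sDB3 arrays and -0.02, -0.01 and -0.05 on the DB3 arrays. All arrays of sAB and sDB3 therefore lay above all arrays of AB and DB3. For the 8 assembly factors the group means of the same measure were 0.12 ± 0.015 in sAB, 0.01 ± 0.014 in AB, 0.01 ± 0.063 in sDB3 and -0.13 ± 0.059 in DB3 (SD, n = 3 each). Over all genes tested it was the sDB3 arrays that were low, at -0.06 ± 0.031 (SD, n = 3), while the other groups averaged 0.01 to 0.03.

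**Figure D1:**
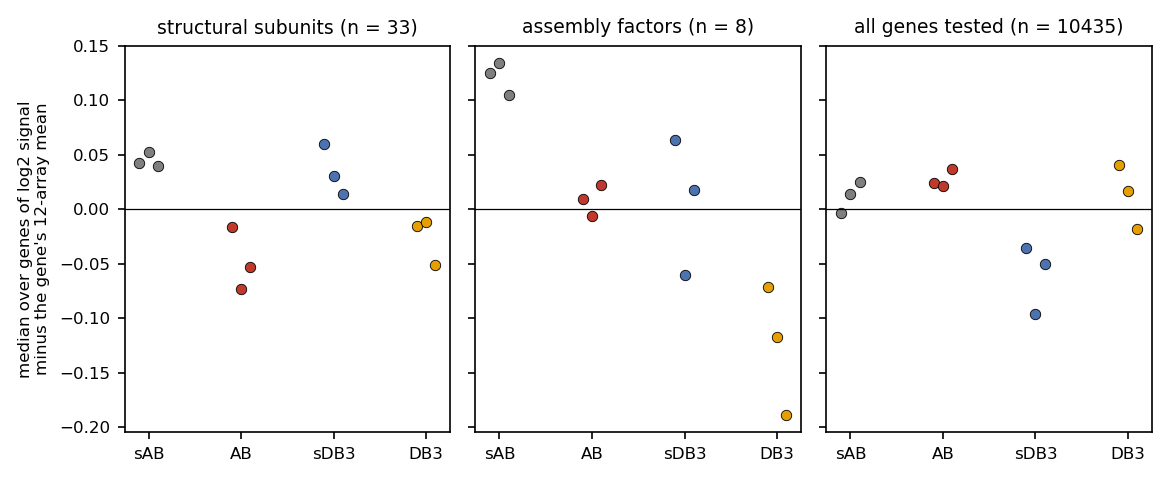
Median over genes of the log2 signal minus the gene's mean over 12 arrays (vertical axis), 1 point per array in the groups sAB, AB, sDB3 and DB3, for 33 structural subunits, 8 assembly factors and all 10435 genes tested. The subunit medians of AB and DB3 lie below those of both shams, the assembly factors are lowest in DB3, and the sDB3 arrays are low over all genes.

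**Figure D2:**
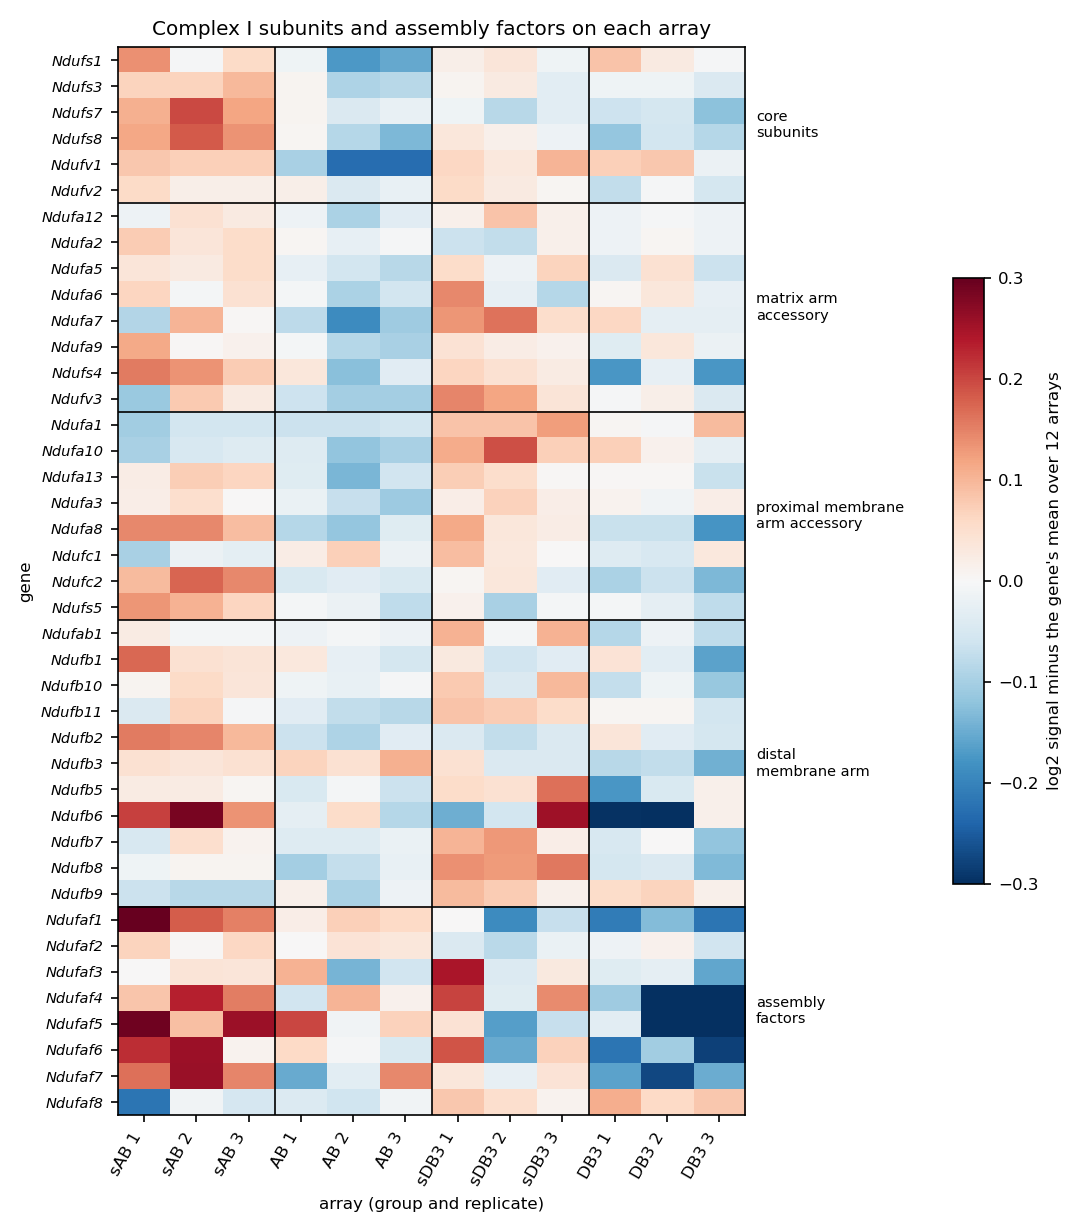
Log2 signal minus the gene's mean over 12 arrays for 33 structural subunits and 8 assembly factors (rows, by place in the complex) on each array (columns, by group), with colours ending at -0.3 and 0.3. The AB columns are mostly blue in the matrix arm rows, the DB3 columns in the distal membrane arm and assembly factor rows.

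Replicate arrays read the subunits closely. The median within-group SD was 0.04 over the subunits, 0.10 over the assembly factors and 0.13 over all genes tested. These lists differ in signal level, and their spread was not compared at equal level. Apart from Ndufb1 (7.98) the mean levels of the subunits ran from 11.96 to 14.96, and those of the assembly factors from 8.18 to 11.16. Ndufb6 had the largest spread of the subunits, at 0.15, with sDB3 arrays from 13.64 to 14.04.

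Banding against its own sham asks what 4 weeks of pressure load changed. Complex I subunits lay slightly lower in AB than in sAB: 29 of 33 had a difference below 0, with a median of -0.09, while 47.8% of all genes tested were below 0 and their median was 0.01. In limma with Benjamini-Hochberg adjustment over all genes tested, 5 subunits fell (Ndufv1, Ndufs8, Ndufa8, Ndufb2 and Ndufc2) and none rose. Ndufa4l2 rose, and no assembly factor passed the test. So 5 of 43 members were called lower (11.6%), against 7.69% of all genes tested, and 6 in either direction, against 19.7%. All AB arrays lay below all sAB arrays for 22 of 33 subunits, and for 19.0% of all genes tested. At an unadjusted p under 0.05, 13 members were lower, 2 of them assembly factors, and 1 was higher, against 14.4% and 19.4% of all genes tested. An unmoderated analysis of variance called 10 lower, none of them an assembly factor, and 1 higher, against 7.31% and 10.8%.

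Ndufv1, the core subunit that binds the flavin and oxidises NADH, fell by 16.4% in AB. Its log2 signal was 14.10, 14.09 and 14.09 in sAB, 13.92, 13.79 and 13.79 in AB, 14.08, 14.05 and 14.12 in sDB3 and 14.09, 14.10 and 14.00 in DB3. All 3 AB arrays lay below the other 9. The log2 difference from sAB was -0.26 ± 0.060 (SE, n = 3 each, limma adjusted p = 0.0128). Its 2 other probe sets also read lower in AB, by -0.23 and -0.15, and the first of these passed the test when each probe set was tested on its own (limma adjusted p = 0.0334). Without AB replicate 2 or 3 the adjusted p became 0.0538 or 0.0571.

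All 6 core subunits measured read lower in AB than in sAB, with a median difference of -0.17. Ndufs8, which holds iron-sulfur clusters on the way to ubiquinone, read 15.07, 15.14 and 15.09 in sAB, 14.96, 14.87 and 14.82 in AB, 14.99, 14.97 and 14.94 in sDB3 and 14.84, 14.90 and 14.87 in DB3. The sAB arrays stood above all the others, and the log2 difference of AB from sAB was -0.21 ± 0.058 (SE, n = 3 each, limma adjusted p = 0.026). Averaging its 5 probe sets gave an adjusted p of 0.0998.

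Ndufs1 and Ndufs7, also in the catalytic core, did not pass. Ndufs1, the largest iron-sulfur subunit, read 13.88, 13.74 and 13.80 in sAB, 13.73, 13.57 and 13.59 in AB, 13.76, 13.78 and 13.73 in sDB3 and 13.83, 13.77 and 13.74 in DB3. Its AB arrays were the lowest, with AB replicate 1 just under sDB3 replicate 3, and the difference from sAB was -0.17 ± 0.066 (SE, n = 3 each, limma adjusted p = 0.0892). Ndufs7 read 14.81, 14.90 and 14.82 in sAB, 14.71, 14.66 and 14.68 in AB, 14.69, 14.62 and 14.67 in sDB3 and 14.64, 14.65 and 14.58 in DB3. Here sAB alone was high, and AB against sAB gave -0.16 ± 0.055 (SE, n = 3 each, limma adjusted p = 0.0646).

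Of the 8 matrix arm accessory subunits all read lower in AB than in sAB, with differences from -0.16 to -0.06, and none passed the test. Ndufs4, whose loss in mice causes a severe complex I deficiency, read 12.12, 12.10 and 12.04 in sAB, 12, 11.84 and 11.93 in AB, 12.03, 12.01 and 11.99 in sDB3 and 11.79, 11.94 and 11.79 in DB3. Both AB and DB3 lay below sAB without overlap, and AB against sAB was -0.16 ± 0.067 (SE, n = 3 each, limma adjusted p = 0.122).

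In the proximal membrane arm 6 of 8 accessory subunits were below 0, and 2 passed. Ndufa8, which faces the intermembrane space, fell by 13.7%. It read 13.61, 13.61 and 13.56 in sAB, 13.38, 13.35 and 13.43 in AB, 13.58, 13.50 and 13.49 in sDB3 and 13.40, 13.40 and 13.29 in DB3. AB and DB3 lay together below both shams, and the difference of AB from sAB was -0.21 ± 0.060 (SE, n = 3 each, limma adjusted p = 0.0315). Ndufc2 differed by -0.18 (limma adjusted p = 0.0384). Ndufa13, also known as GRIM-19, read 14.41, 14.46 and 14.45 in sAB, 14.35, 14.25 and 14.33 in AB, 14.46, 14.44 and 14.39 in sDB3 and 14.39, 14.39 and 14.32 in DB3. Its AB arrays lay below those of sAB and of sDB3, by -0.13 ± 0.057 against sAB (SE, n = 3 each, limma adjusted p = 0.144).

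In the distal membrane arm 9 of 11 subunits were below 0 and 1 passed. Ndufb2 read 13.59, 13.58 and 13.53 in sAB, 13.37, 13.34 and 13.40 in AB, 13.39, 13.36 and 13.39 in sDB3 and 13.47, 13.40 and 13.38 in DB3. Only the sAB arrays were high, and AB against sAB was -0.20 ± 0.055 (SE, n = 3 each, limma adjusted p = 0.026). Ndufab1, the mitochondrial acyl carrier protein that sits in complex I, read 14.40, 14.37 and 14.37 in sAB, 14.36, 14.37 and 14.36 in AB, 14.48, 14.37 and 14.48 in sDB3 and 14.29, 14.36 and 14.30 in DB3. Its AB and sAB arrays overlapped, with a difference of -0.02 ± 0.056 (SE, n = 3 each).

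Without any 1 of the 6 arrays of sAB and AB the call of Ndufa8 was lost (limma adjusted p 0.0501 to 0.104), and the number of members called ranged from 1 to 6 when single arrays were left out, 1 being Ndufa4l2 without AB replicate 2. Without AB replicate 3 it was 2, and the calls of Ndufs8, Ndufb2 and Ndufc2 were each lost without 4 to 7 single arrays.

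Ndufa4l2 is a paralog of Ndufa4 that is induced in hypoxia and has been linked to lower complex I activity. It read 6.15, 5.93 and 5.99 in sAB, 7.13, 6.74 and 7.11 in AB, 6.68, 6.41 and 6.45 in sDB3 and 6.57, 6.71 and 6.51 in DB3. Every AB array stood above every other array, and every sAB array below. It was 1.96-fold higher in AB than in sAB, a log2 difference of 0.97 ± 0.118 (SE, n = 3 each, limma adjusted p = 0.000504), and this call was kept in 20 of 20 alternative settings. Ndufa4 itself, now counted as a complex IV subunit, read 14.23, 14.20 and 14.23 in sAB, 14.21, 14.15 and 14.24 in AB, 14.34, 14.23 and 14.30 in sDB3 and 14.21, 14.24 and 14.23 in DB3. Its AB and sAB arrays overlapped (-0.02 ± 0.056, SE, n = 3 each).

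Ndufa4l2 is known from pericytes and vascular smooth muscle, so markers of these cells stand beside it. Of the 5 markers none was dim, and their summed level was 14.26 to 14.35 in sAB, 14.34 to 14.55 in AB, 14.17 to 14.46 in sDB3 and 14.35 to 14.49 in DB3. Cspg4, the pericyte proteoglycan NG2, rose by 1.07 in AB against sAB (limma adjusted p = 0.000595) and Pdgfrb, the receptor for platelet-derived growth factor B, by 0.43 (limma adjusted p = 0.0262). Rgs5 differed by 0.03, and Acta2 and Myh11 did not pass. The part of these cells in the Ndufa4l2 signal was not tested.

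**Figure D3:**
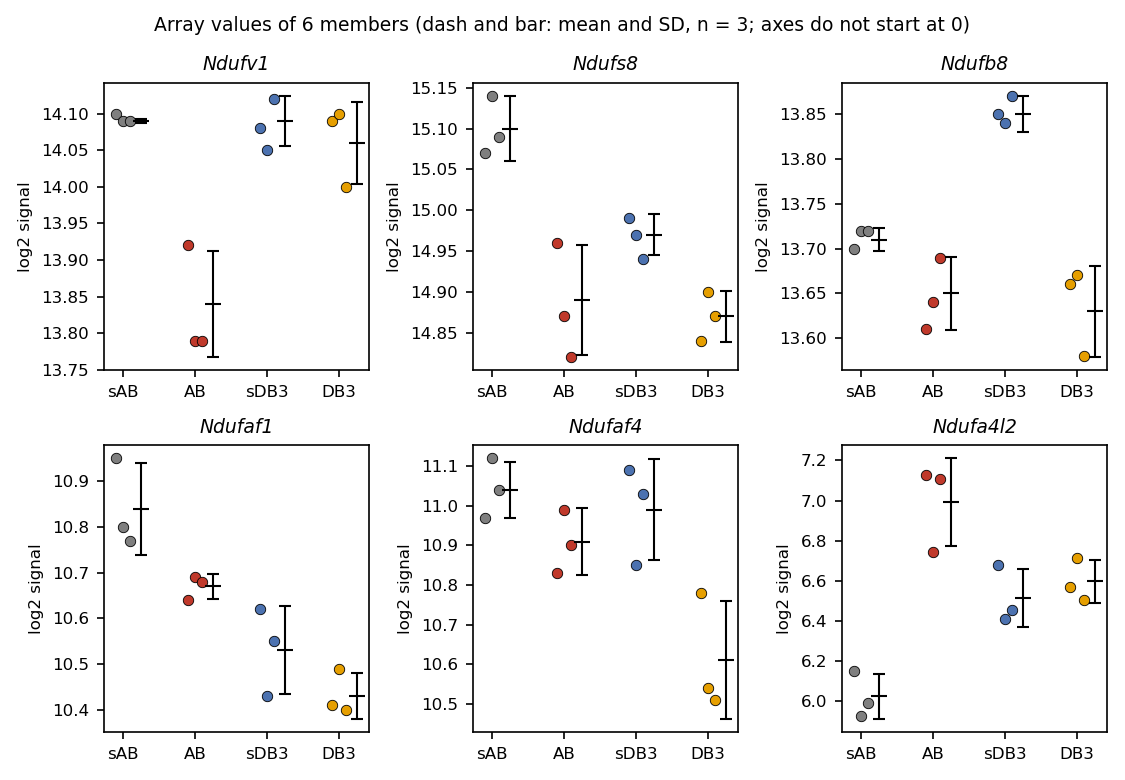
Log2 signal (vertical axis, not starting at 0) of 6 members on each array, by group, with mean and SD (n = 3). Ndufv1 is low on the 3 AB arrays only, Ndufb8 is high in sDB3, Ndufaf1 and Ndufaf4 are lowest in DB3, and Ndufa4l2 is highest in AB and lowest in sAB.

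The second sham, sDB3, did not show the high BioC of sAB and gives another baseline for the banded hearts. The subunits again lay lower in AB, 29 of 33 below 0 with a median of -0.08, against 32.1% of all genes tested and an all-gene median of 0.11. Ndufv1, Ndufa7, Ndufa10 and Ndufb8 fell, and Ndufa4l2 rose. That makes 4 of 43 members lower (9.3%) and 1 higher (2.33%), where all genes tested gave 4.69% lower and 17.3% higher. All AB arrays lay below all sDB3 arrays for 17 of 33 subunits, and for 10.5% of all genes tested. Of the assembly factors 5 of 8 were below 0 with a median of -0.03, and in limma none passed, nor did any reach an unadjusted p under 0.05 or pass an unmoderated analysis of variance. Over all members, 8 were lower and 1 higher at an unadjusted p under 0.05, against 8.38% and 28.2% of all genes tested. The unmoderated analysis called 10 lower and 1 higher, against 4.14% and 14.3%. The comparisons of AB with the 2 shams share the AB arrays.

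Ndufv1 differed from sDB3 by -0.25 ± 0.060 and Ndufa4l2 by 0.48 ± 0.118 (SE, n = 3 each, limma adjusted p = 0.0153 and 0.0176). These were the members called against both shams. Without AB replicate 2 or 3 the adjusted p of Ndufv1 was 0.0589 or 0.0641, and that of Ndufa4l2 was 0.0768 after quantile normalization and 0.075 after centring each array. Leaving out AB replicate 1, AB replicate 3 or sDB3 replicate 2 gave 0.0563, 0.073 or 0.0609 for Ndufa4l2.

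The other subunits called against sDB3 were high in sDB3. Ndufa10, an accessory subunit of the membrane arm, read 13.80, 13.85 and 13.86 in sAB, 13.86, 13.78 and 13.80 in AB, 14.01, 14.09 and 13.97 in sDB3 and 13.97, 13.91 and 13.87 in DB3. Its sDB3 arrays were at or above all others while sAB and AB overlapped, and AB against sDB3 was -0.21 ± 0.060 (SE, n = 3 each, limma adjusted p = 0.0327). Ndufa7, of the matrix arm, read 13.09, 13.28 and 13.18 in sAB, 13.10, 12.99 and 13.07 in AB, 13.31, 13.34 and 13.23 in sDB3 and 13.24, 13.15 and 13.15 in DB3. AB overlapped with sAB and lay below sDB3, by -0.24 ± 0.068 (SE, n = 3 each, limma adjusted p = 0.0314). Both calls were lost without AB replicate 2 or 3 or sDB3 replicate 1 or 2, with limma adjusted p up to 0.104 for Ndufa10 and 0.108 for Ndufa7.

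Ndufb8, whose protein is a common antibody target for complex I because it is unstable when the complex is not assembled, read 13.70, 13.72 and 13.72 in sAB, 13.61, 13.64 and 13.69 in AB, 13.85, 13.84 and 13.87 in sDB3 and 13.66, 13.67 and 13.58 in DB3. The sDB3 arrays stood above the other 9, and those of AB and DB3 overlapped below sAB. AB against sDB3 was -0.21 ± 0.055 (SE, n = 3 each, limma adjusted p = 0.0234), and 0.051 to 0.0717 without AB replicate 1 or 2 or sDB3 replicate 1 or 3. A dim second probe set of Ndufb8 read 0.26 higher in AB (limma adjusted p = 0.184), and the mean of the 2 probe sets differed by 0.03.

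**Figure D4:**
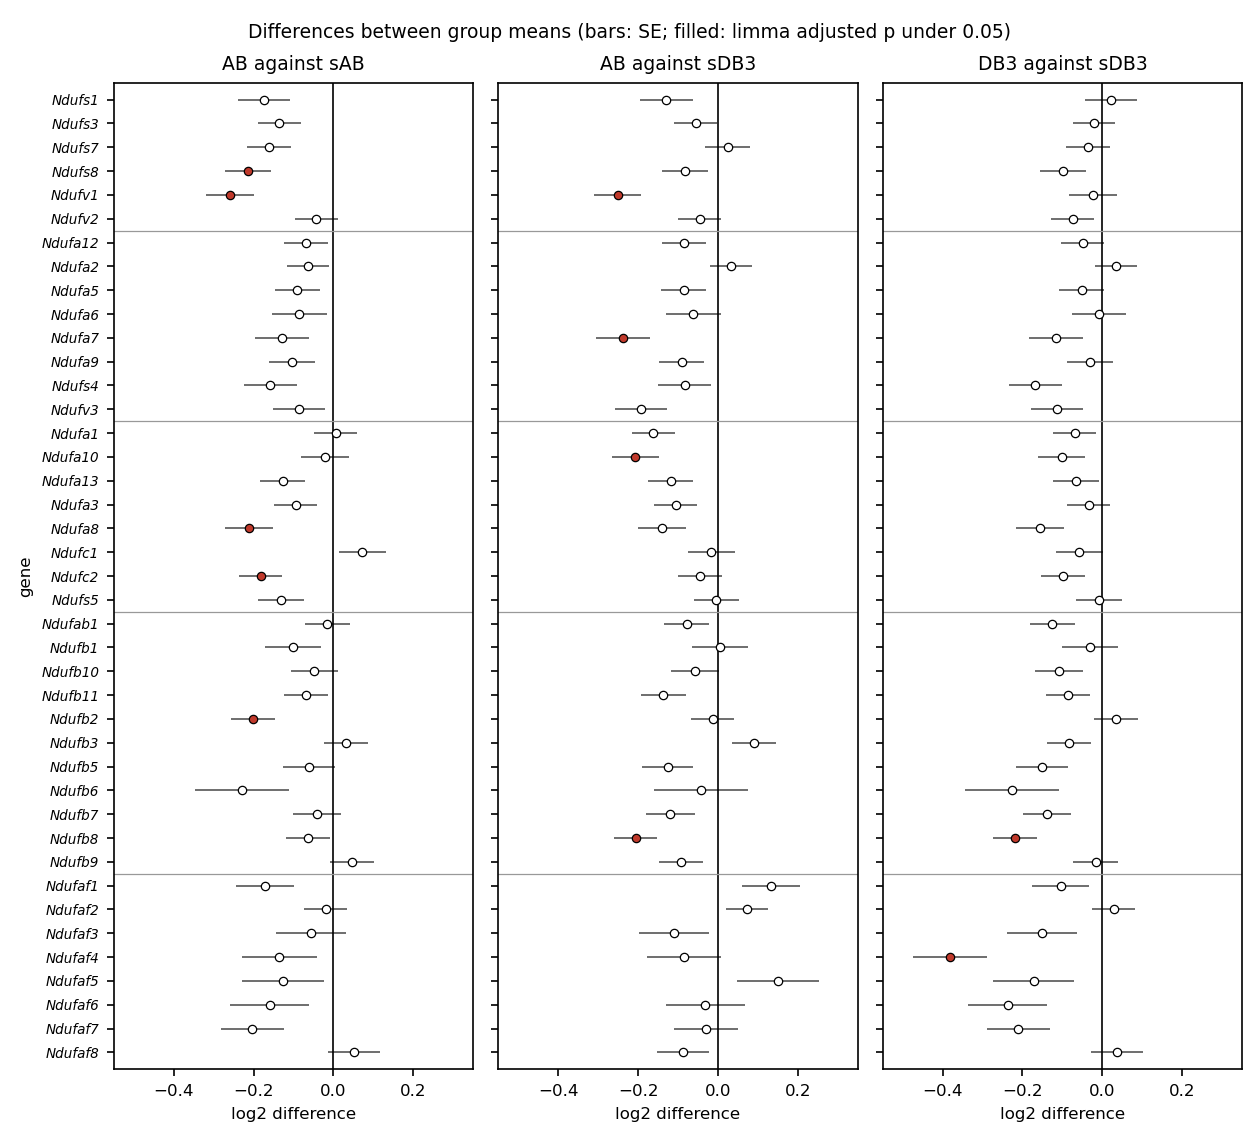
Log2 difference of group means with SE (n = 3 arrays per group) for 33 subunits and 8 assembly factors, by place in the complex, in 3 comparisons, filled where the limma adjusted p is under 0.05. Most subunits lie to the left of 0 in each panel, Ndufv1 is filled against both shams, and Ndufaf4 lies farthest to the left in DB3 against sDB3.

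The shams themselves were compared because they differ by the second operation and 3 days, and in the spiked control BioC. Subunits were split, 18 of 33 below 0 with a median of -0.01, while 65.5% of all genes tested were below 0. The sDB3 arrays lay below all sAB arrays for 9 subunits and 4 assembly factors, and for 25.9% of all genes tested. Ndufb2 and Ndufs7 fell in sDB3 against sAB, as did the assembly factor Ndufaf1, and Ndufa4l2 rose by 0.49 (limma adjusted p = 0.0197, and 0.055 to 0.0632 without sAB replicate 2 or 3 or sDB3 replicate 1). These were 3 of 43 members lower (6.98%) and 1 higher (2.33%), against 12.3% and 5.49% of all genes tested. The differences of Ndufb2 (-0.19) and Ndufs7 (-0.19) had limma adjusted p of 0.0373 and 0.042, and both calls were lost without any 1 of 10 arrays.

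Ndufaf1, a chaperone of the early membrane arm intermediate, read 10.95, 10.80 and 10.77 in sAB, 10.64, 10.69 and 10.68 in AB, 10.62, 10.43 and 10.55 in sDB3 and 10.41, 10.49 and 10.40 in DB3. The sAB arrays were the highest and the DB3 arrays overlapped with sDB3. Ndufaf1 fell by 19.0% in sDB3 against sAB, a log2 difference of -0.30 ± 0.072 (SE, n = 3 each, limma adjusted p = 0.0187). Centring each array on its median gave an adjusted p of 0.119, and leaving out sAB replicate 1 or sDB3 replicate 2 gave 0.056 or 0.0636.

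Debanding against its own sham asks what remained or was new 3 days after the load was taken away. Here 30 of 33 subunits and 6 of 8 assembly factors lay below 0, with medians of -0.07 and -0.16, while 30.7% of all genes tested were below 0 and their median was 0.09. Genes of cardiomyocyte structure, such as those of the sarcomere, were also low: 12 of 12 lay below 0, with a median of -0.09, and none passed. The 5 ventricular cardiomyocyte markers were also all below 0, with a median of -0.09. In AB against sDB3, 8 of the 12 structure genes were below 0, with a median of -0.09, and in AB against sAB 7 of 12, with a median of -0.03. The part of the cardiomyocyte share in the complex I values was not tested. The subunit Ndufb8 and the assembly factor Ndufaf4 fell, and no member rose. In limma, 2 of 43 members were called lower (4.65%), against 0.997% of all genes tested, and 0 higher, against 5.37%. All DB3 arrays lay below all sDB3 arrays for 14 of 33 subunits, and for 5.74% of all genes tested. At an unadjusted p under 0.05, 9 members were lower and 0 higher, beside 4.69% and 21.2% of all genes tested. An unmoderated analysis of variance called 1 lower and 0 higher, beside 0.661% and 3.43%.

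Ndufaf4, which works with Ndufaf3 at an early step of assembly, read 10.97, 11.12 and 11.04 in sAB, 10.83, 10.99 and 10.90 in AB, 11.09, 10.85 and 11.03 in sDB3 and 10.78, 10.54 and 10.51 in DB3. All DB3 arrays lay below the other 9. It fell by 23.2% in DB3 against sDB3, a log2 difference of -0.38 ± 0.093 (SE, n = 3 each, limma adjusted p = 0.0422), and its second probe set differed by -0.37 (limma adjusted p = 0.0728). Ndufb8 differed by -0.22 ± 0.055 (SE, n = 3 each, limma adjusted p = 0.0445).

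Both calls were close to the threshold. Leaving out 1 array ended the call of Ndufaf4 for 11 of 12 arrays and of Ndufb8 for 12 of 12, with adjusted p up to 0.103 and 0.0999, and without the 3 sAB arrays they were 0.0662 and 0.0725 (a setting chosen after seeing the data). The mean of the 2 probe sets of Ndufb8 differed by -0.01 (limma adjusted p = 0.93).

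The remaining assembly factors are given one by one. Ndufaf5, a hydroxylase of Ndufs7, read 8.83, 8.63 and 8.79 in sAB, 8.74, 8.53 and 8.60 in AB, 8.58, 8.37 and 8.47 in sDB3 and 8.503, 8.205 and 8.192 in DB3. The DB3 arrays lay below those of AB and overlapped with sDB3, with -0.17 ± 0.102 in DB3 against sDB3 and -0.32 ± 0.102 in DB3 against AB (SE, n = 3 each, limma adjusted p = 0.316 and 0.0758). Its partner Ndufaf8 ran the other way, with 10.94, 11.15 and 11.11 in sAB, 11.12, 11.10 and 11.15 in AB, 11.24, 11.21 and 11.17 in sDB3 and 11.27, 11.22 and 11.24 in DB3. The sDB3 and DB3 arrays of Ndufaf8 lay above those of sAB and AB, and no comparison passed the test.

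Ndufaf7, a methyltransferase, read 8.35, 8.44 and 8.33 in sAB, 8.03, 8.15 and 8.33 in AB, 8.22, 8.16 and 8.22 in sDB3 and 8.02, 7.91 and 8.03 in DB3. Its DB3 arrays lay below sDB3 by -0.21 ± 0.080 (SE, n = 3 each, limma adjusted p = 0.133). Ndufaf6 read 8.93, 8.96 and 8.72 in sAB, 8.77, 8.70 and 8.66 in AB, 8.90, 8.56 and 8.78 in sDB3 and 8.49, 8.60 and 8.43 in DB3. The DB3 arrays were below AB and overlapped with sDB3, and DB3 against sDB3 was -0.24 ± 0.098 (SE, n = 3 each, limma adjusted p = 0.161).

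Ndufaf3 read 9.89, 9.92 and 9.92 in sAB, 9.99, 9.75 and 9.83 in AB, 10.13, 9.85 and 9.92 in sDB3 and 9.85, 9.86 and 9.73 in DB3. Its groups overlapped, except that DB3 lay below sAB. Ndufaf2, a late factor for the NADH module, read 9.43, 9.37 and 9.43 in sAB, 9.36, 9.40 and 9.40 in AB, 9.32, 9.28 and 9.34 in sDB3 and 9.35, 9.38 and 9.31 in DB3. The sDB3 arrays of Ndufaf2 were below those of sAB and AB, and neither gene passed in any comparison.

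Debanded against banded hearts asks what differed between 3 days of relief and standing load. Subunits were split, 16 of 33 below 0 with a median of 0.0015, and 7 of 8 assembly factors were below 0 with a median of -0.19, against 53.7% and -0.02 for all genes tested. A difference between these groups of genes was not tested, and no assembly factor passed. Ndufv1 rose by 17.1%, a log2 difference of 0.23 ± 0.060 (SE, n = 3 each, limma adjusted p = 0.0397). It was 1 of 43 members called higher (2.33%), where 4.04% of all genes tested were, and none was called lower, against 5.12%. At an unadjusted p under 0.05, 6 members were lower, 4 of them assembly factors, and 2 were higher, where all genes tested gave 13.8% and 10.9%. An unmoderated analysis of variance called 1 lower and 1 higher, where all genes tested gave 4.15% and 3.33%.

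In DB3 the arrays of Ndufv1 reached those of the shams, and DB3 against sDB3 was -0.02 ± 0.060 (SE, n = 3 each, limma adjusted p = 0.838). All 3 of its probe sets read higher in DB3 than in AB, by 0.23, 0.24 and 0.28, and each passed when tested on its own. The call was lost without any 1 of 8 arrays, with adjusted p up to 0.145 without AB replicate 3. Ndufa4l2 differed by -0.40 ± 0.118 (SE, n = 3 each, limma adjusted p = 0.0621) between DB3 and AB, with all DB3 arrays below all AB arrays.

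Among the assembly factors the DB3 arrays lay below all AB arrays for 4 of 8, Ndufaf1, Ndufaf4, Ndufaf5 and Ndufaf6, while this held for 17.6% of all genes tested. The log2 differences of Ndufaf1 and Ndufaf4 were -0.24 ± 0.072 and -0.30 ± 0.093 (SE, n = 3 each, limma adjusted p = 0.0663 and 0.0743).

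Whether the change from sham differed between banded and debanded hearts was tested as the difference of effects, DB3 minus sDB3 less AB minus sAB. Ndufa4l2 was called, at -0.89 ± 0.167 (SE, limma adjusted p = 0.0191), as 1 of 43 members lower (2.33%), against 2.59% of all genes tested, and none higher, against 3.45%. Its change from sham was 0.97 in AB and 0.08 in DB3. Ndufa4l2 was also 0.49 higher in sDB3 than in sAB, so part of this result lies between the shams, where BioC differs. Without AB replicate 3 the adjusted p of the difference of effects was 0.0542. The difference of effects was below 0 for 14 of 33 subunits and 6 of 8 assembly factors, and for 39.4% of all genes tested. After centring each array on its median these were 25 of 33 and 8 of 8, and the subunit median went from 0.02 to -0.07. For Ndufv1 the difference of effects was 0.24 ± 0.084 (limma adjusted p = 0.122), so a different effect on Ndufv1 was not shown. An unadjusted p under 0.05 was reached by 2 members higher and 1 lower, against 15.6% and 8.56% of all genes tested. The unmoderated analysis of variance called 1 each, against 2.32% higher and 1.97% lower.

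The scale of the sDB3 arrays bears on the counts. As deposited, AB against sDB3 had 1809 genes higher and 489 lower with an all-gene median of 0.11, and after each array was centred on its median 738 and 1320 with a median of -0.04. DB3 against sDB3 went from 560 higher and 104 lower to 127 and 348, sDB3 against sAB from 573 and 1288 to 1058 and 481, and AB against sAB from 1256 and 802 to 1086 and 1075. The difference of effects went from 360 and 270 to 153 and 430. After centring, all 33 of 33 subunits were below 0 in AB against sDB3 and in DB3 against sDB3, with medians of -0.23 and -0.20, and 25 members were called lower in AB against sDB3. For sDB3 against sAB centring turned the subunits to a median of 0.10, with 6 of 33 below 0. After quantile normalization 29, 28 and 28 of 33 subunits were below 0 in AB against sAB, AB against sDB3 and DB3 against sDB3.

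Other parts of the respiratory chain are given by their medians. Against sAB the median difference was -0.16 for 8 genes of complex II, -0.09 for 9 of complex III, -0.07 for 14 of complex IV and -0.10 for 17 of the ATP synthase, beside -0.09 for the complex I subunits. Against sDB3 the medians were -0.03, -0.16, -0.12 and -0.14, beside -0.08. Debanding against its sham gave -0.02, -0.12, -0.08 and -0.08, beside -0.07. In AB against sAB 3, 1, 1 and 0 genes of these lists fell and 0, 0, 1 and 0 rose. Single differences from sAB ran from -0.26 to 0.07 in the complex I subunits and from -0.18 to 0.03 in the ATP synthase. In complex IV they ran from -1.14 (Cox7c) to 1.22 (Cox4i2), but both genes were dim. Their group means were 3.66 to 4.80 and 4.62 to 5.84, near the filter at log2 4. The other complex IV genes ran from -0.21 (Cox8b) to 0.20 (Cox6a1). Differences between the lists were not tested.

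Sdha, the flavin-binding subunit of complex II, was called in the same 3 comparisons as Ndufv1: it fell by 0.33 against sAB and by 0.29 against sDB3 and rose by 0.36 in DB3 against AB (limma adjusted p = 0.0258, 0.0414 and 0.0318). Uqcr10 of complex III fell by 0.37 against sAB (limma adjusted p = 0.018) and Atp5a1 of the ATP synthase by 0.25 against sDB3 (limma adjusted p = 0.0147). Among 11 tested complex I assembly factors without the Ndufaf prefix, 3 fell in AB against sAB (27.3%, against 7.69% of all genes tested). In sDB3 against sAB 4 fell (36.4%, against 12.3%), and 1, Acad9, rose in AB against sDB3 (9.09%, against 17.3%). Whether these 11 read low in DB3 depended on the baseline. In DB3 against sDB3, 4 of 11 lay below 0, with a median of 0.02, where 30.7% of all genes tested did. In DB3 against AB, 8 of 11 lay below 0, with a median of -0.08, where 53.7% of all genes tested did. The sDB3 baseline was itself low, with 10 of 11 below 0 in sDB3 against sAB, where 65.5% of all genes tested were. Tmem126b, a membrane arm assembly factor, fell by 0.47 in AB and by 0.46 in sDB3 against sAB (limma adjusted p = 0.0188 and 0.0249).

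Of 10 regulators of mitochondrial genes none passed in AB against sAB. Debanded hearts differed from their sham in Nrf1 and Tfam: Nrf1, the gene of the factor whose letters were searched, rose by 0.42 and Tfam, a transcription factor of mitochondrial DNA, fell by 0.30 (limma adjusted p = 0.0334 and 0.0259). Ppargc1b, a relative of PGC-1alpha, rose by 0.47 in sDB3 against sAB (limma adjusted p = 0.0375). Ppargc1a, the coactivator PGC-1alpha, differed by -0.52 against sAB and fell by 1.23 against sDB3 (limma adjusted p = 0.204 and 0.0107), with sDB3 arrays at 11.68, 11.01 and 10.25. Of 9 genes of mitochondrial membranes and matrix 1 passed against each sham, Vdac1, the pore of the outer membrane, which fell by 0.39 against sAB and by 0.21 against sDB3 (limma adjusted p = 0.00214 and 0.0359). Of 76 mitochondrial ribosomal proteins 13 fell (17.1%, against 7.69% of all genes tested) and 0 rose in AB against sAB, with a median of -0.11. Against sDB3, 5 fell (6.58%, against 4.69%) and 1 rose, with a median of -0.008 and 39 of 76 below 0. In sDB3 against sAB, 10 fell (13.2%, against 12.3%) and 1 rose, with a median of -0.11. DB3 against sDB3 had 62 of 76 below 0 (81.6%, against 30.7%) with a median of -0.09, and 1 fell (1.32%, against 0.997%). DB3 against AB had 56 below 0 (73.7%, against 53.7%), and 3 fell (3.95%, against 5.12%). None rose in either. Their array medians, as in the array summary above, averaged 0.11 in sAB, -0.009 in AB, -0.004 in sDB3 and -0.09 in DB3. A course from highest in sAB to lowest in DB3 was thus not particular to the Ndufaf genes.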

How the data were processed

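Left ventricular RNA of 12 mice was read on 12 arrays. The authors deposited log2 signals per probe set, made with GCRMA per the submitters' processing notes. For GCRMA no version or settings, and for the array annotation no genome build, is given in the sources used here. Genes were assigned to probe sets from the platform's annotation table. A probe set was tested where log2 was above 4 on at least 3 arrays, and the brightest stood for its gene. Group differences were tested with limma 3.58.1 (R 4.3.3, lmFit and eBayes) in 1 model of the 4 groups, two-sided, with Benjamini-Hochberg adjustment over 10435 genes and a threshold of 0.05. The model was also run on simulated data with independent noise and no shift of whole arrays, which does not test the results on complex I. With 3 arrays a group, the smallest p of an exact permutation test is 0.1. Tables and plots used Python 3.11.15, pandas 2.3.3 and matplotlib 3.10.9. The number of arrays limits the precision, and the labels do not exclude technical sources of the spread between mice. Array values are given for up to 4 called members per direction and comparison with the largest differences and for a fixed list of catalytic, accessory and assembly genes. Of the other lists up to 2 genes per comparison are named. The members and lists were chosen with earlier results of these data known, and the NRF1 letters were shortened for printing after the longer form had been searched. Alternatives changed the filter, the probe set rule, the scaling, the moderation and the arrays used.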

Additional observations from a re-analysis of the deposited data

Results flagged for a closer look

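The change of Ndufa4l2 from sham differed between the banded and the debanded comparison in a test of that difference. The change of DB3 from sDB3 less the change of AB from sAB was -0.89 on the log2 scale (SE 0.167, limma adjusted p = 0.0191, and 0.0542 without AB replicate 3). The test uses the sAB arrays, which BioC sets apart, and Ndufa4l2 was 0.49 higher in sDB3 than in sAB (limma adjusted p = 0.0197). DB3 against AB, which does not use the sAB mean, gave -0.40 (limma adjusted p = 0.0621).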

How the results depend on the processing

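For the members called, in the order AB against sAB, AB against sDB3, sDB3 against sAB, DB3 against sDB3, DB3 against AB and difference of effects, the counts were 6, 5, 4, 2, 1 and 1. These counts and those below are in either direction. Without a filter on dim probe sets the counts were 11, 9, 10, 1, 2 and 2. An unmoderated analysis of variance gave 11, 11, 13, 1, 2 and 2. Moderation with trend and robust fitting gave 11, 11 and 11 in the first 3 and 4 and 3 in the last 2 comparisons. Using only the arrays compared gave 3, 1, 1, 0 and 0 in the first 5. Quantile normalization gave 3 in AB against sDB3, 1 in DB3 against sDB3 and 0 in DB3 against AB. Over all genes it gave 919 higher and 727 lower, 107 and 92, and 492 and 537 in these comparisons. Centring gave 25 in AB against sDB3, 8 for sDB3 against sAB and 8 for DB3 against sDB3. Over all genes it gave 738 higher and 1320 lower, 1058 and 481, and 127 and 348 in these comparisons. As the totals over all genes moved too, the counts are no result about the members alone. Of the other settings, only the unmoderated analysis has shares over all genes here, given above except for sDB3 against sAB. The remaining counts have no background beside them and are no result about the members. Averaging each gene's probe sets gave 2 for sDB3 against sAB and 1 for DB3 against sDB3, and a filter at log2 6 gave 2 in DB3 against AB. Without the 3 sAB arrays, chosen after seeing the data, DB3 against sDB3 and DB3 against AB both gave 0. Leaving out single arrays gave 1 to 6, 1 to 6, 1 to 5, 0 to 1, 0 to 2 and 0 to 1.

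Centring moved the subunit medians to -0.13 in AB against sAB, -0.23 in AB against sDB3, 0.10 for sDB3 against sAB and -0.20 for DB3 against sDB3, and the assembly factor medians to -0.17, -0.18, 0.00039 and -0.29. In the difference of effects it turned the subunit median from 0.02 to -0.07. Quantile normalization moved the subunit median to -0.026 for sDB3 against sAB and those of the assembly factors to -0.16, -0.12, -0.049 and -0.23. Without single arrays the subunit medians were -0.11 to -0.08 (AB against sAB), -0.114 to -0.074 (AB against sDB3), -0.02 to -0.0041 (sDB3 against sAB), -0.09 to -0.06 (DB3 against sDB3) and -0.003 to 0.02 (DB3 against AB). Those of the assembly factors were -0.13 to -0.10, -0.07 to 0.01, -0.141 to -0.055, -0.217 to -0.093 and -0.21 to -0.17. Averaging its probe sets reversed Ndufb8 in AB against sDB3 (0.0253, limma adjusted p = 0.839). The cause was not tested. No paired analysis was possible because the labels carry no replicate numbers, and those used here follow accession order only. Signals near the floor of log2 2.23 limit Ndufb4.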
